A study of Rattus norvegicus with 6 samples.

Results

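The genes of the Wnt pathway were followed in 2 mural cell types of the rat brain, the vascular smooth muscle cells (VSMCs) that wrap arterioles and the mid-capillary pericytes (mcPCs) that sit on capillaries. The members are the rows whose gene symbol is that of a Wnt ligand, its acylating enzyme Porcn or its carrier Wls, a Frizzled, Lrp5 or Lrp6, Ror1, Ror2 or Ryk, an R-spondin or its receptors Lgr4 to Lgr6, a secreted or membrane inhibitor, a part of the cytoplasmic relay, or a TCF/LEF or Groucho/TLE factor. By this rule, which reads names and no measured value, 61 of the 14607 listed genes are members.

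RNA-Seq had been run on 3 samples of each cell type, all from the cortex of male Sprague-Dawley rats aged 4 to 5 weeks, with no treatment or genetic change in either group. Each of 3 isolations started from pooled animals and gave a VSMC sample and a mcPC sample. The sample titles of both cell types carry the codes DN, DL and DK, which are read here as the isolations, although the labels do not say so. VSMCs were sorted positively with the lectin GSA-FITC from dissociated arterioles after cells with CD31 or CD11b had been removed, whereas mcPCs were what remained of the capillary filtrate once cells with CD31, CD11b, GLAST or O4 had been taken out. Venous pericytes and the pericytes next to arterioles were not sorted apart.

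In the canonical branch of the pathway, a Wnt protein binds a Frizzled and the co-receptor Lrp5 or Lrp6, the complex of Axin, Apc and Gsk3 stops marking beta-catenin for degradation, and beta-catenin joins a TCF/LEF factor on DNA. Other branches use Ror and Ryk receptors, planar polarity proteins or calcium. In brain vessels the pathway is best known for its role in endothelial cells, where it builds and keeps the blood-brain barrier.

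The deposited table holds the authors' mean of each cell type, with no value per sample, so no SD between isolations is given and no test over samples was run. The columns of the authors' own comparison in that table were not used. Levels are the authors' mean abundance in the unit TPM, the transcripts of a gene per 1e6 transcripts, which is per length and lets genes be compared within a cell type. Cell types were compared by the log2 ratio of the authors' mean normalized counts, mcPCs over VSMCs, with 1 added to each, so that positive values are higher in mcPCs and the ratio of a low gene is understated. The 95% intervals are exact (Clopper-Pearson) intervals from the reads summed over the 3 samples of each cell type. They cover counting error only and not the spread between isolations, and reads amplified by PCR without molecular identifiers are not independent molecules. A gene was counted as different when this ratio passed 2-fold. In bulk samples, fewer cells of a type and less RNA per cell cannot be told apart.

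Reads assigned to genes came to 62.0 M (M, 1e6) in a VSMC sample and to 48.0 M in a mcPC sample, on average. Smooth muscle markers summed to 44405 TPM in VSMCs and to 60.9 TPM in mcPCs (5 of 5 genes at least 2-fold higher in VSMCs) and pericyte markers stood at 520.1 TPM and 2487 TPM (5 of 5 higher in mcPCs), as the labels say. mcPCs also held transcripts of other cells. Erythrocyte genes made up 66.6% of the mcPC TPM against 0.865% of the VSMC TPM. The scale therefore matters. Over all genes the median log2 ratio was 0.01 on the normalized counts, -1.72 on TPM as it stands, -0.55 on counts brought to equal totals and 0.18 on counts scaled without erythrocyte genes. A further scale sets TPM relative to the median gene. The scales differ mostly by a shift common to all genes, large downward and small upward. A gene clearly higher in VSMCs could therefore hardly change sign between them. Ratios below are on the normalized counts unless another scale is named.

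Among the 61 members, 21 passed 2-fold with the higher mean in mcPCs (34.4%, against 21.6% of all listed genes) and 7 with the higher mean in VSMCs (11.5%, against 13.8%). The other 33 lay between. The median ratio of the members was 0.38, against 0.01 over all genes, and single ratios ran from -3.59 for Nkd1 to 5.35 for Tcf7. The share of genes higher in mcPCs was larger at low TPM, for the members and for all genes alike. The cut at 0.8 TPM was made on a scale where the median gene had a ratio of -1.72. Genes under it in both cell types therefore tend to be higher in mcPCs by normalized counts, and part of this share is set by the cut. Among the 15 members under 0.8 TPM in both cell types, 10 were higher in mcPCs and 0 in VSMCs, where all genes of that abundance gave 54.9% and 5.01%. Among the 46 members with at least 0.8 TPM in a cell type, 11 were higher in mcPCs (23.9%, against 16.9% of such genes) and 7 in VSMCs (15.2%, against 15.0%), with a median ratio of 0.13 against -0.07. Past 4-fold lay 9 members higher in mcPCs and 3 higher in VSMCs, beside 12.0% and 5.64% of all genes. The split also moved with the scale. On TPM as it stands 4 members were higher in mcPCs and 33 in VSMCs, beside 7.00% and 72.3% of all genes, and on counts brought to equal totals 13 and 14, beside 15.4% and 28.7%. On every scale the members' median lay above that of all genes, by 0.35 to 0.53. A shift common to all genes leaves this difference as it is, so the 5 scales are not independent support for it.

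**Figure D1:**
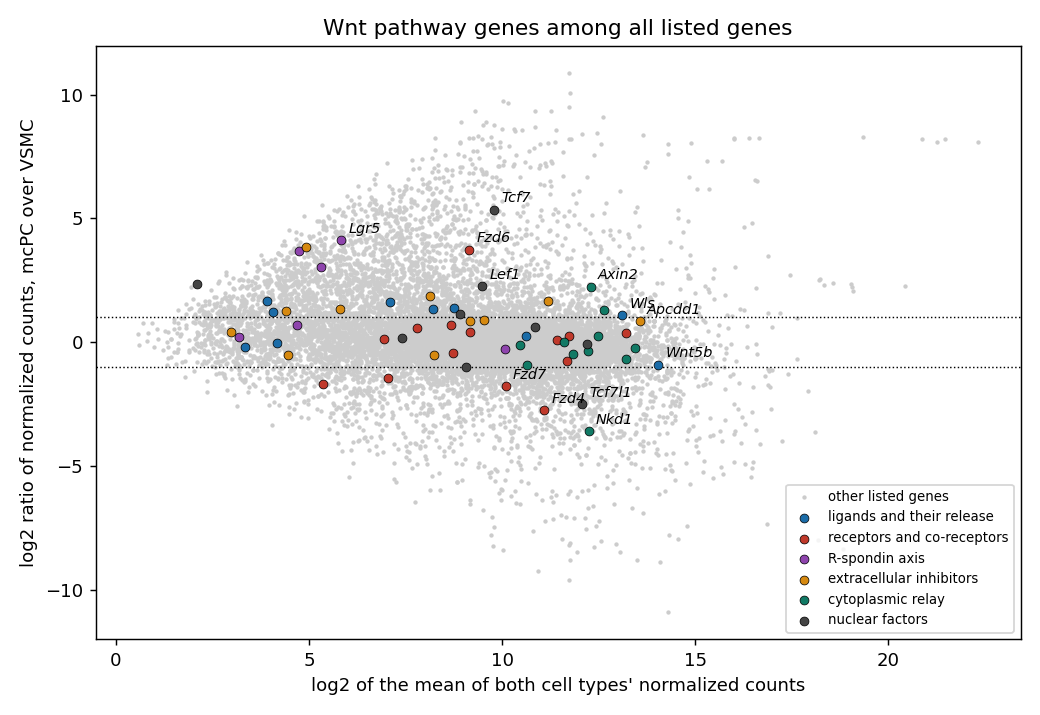
Log2 ratio of mean normalized counts (mcPC over VSMC) against log2 of their mean over both cell types, for all 14607 listed genes (grey) and the 61 Wnt genes coloured by role. Dotted lines mark 2-fold. Tcf7, Fzd6, Lef1 and Axin2 lie above the upper line and Nkd1, Fzd4, Tcf7l1 and Fzd7 below the lower one, while Wnt5b, the most abundant member, lies between.

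Only 1 Wnt ligand was abundant in either cell type. Wnt5b (Ensembl ENSRNOG00000008168), a ligand of the beta-catenin-independent branches, stood at 394 TPM in VSMCs against 59.0 TPM in mcPCs, above 97.3% and 96.0% of the genes of the same cell type. It held 98.2% of the TPM of the 8 listed ligands in VSMCs and 92.9% in mcPCs, 114 times and 23.6 times the level of Wnt11, the next one. Its mean normalized counts were 21890.2 in VSMCs and 11667 in mcPCs, a log2 ratio of -0.91 (95% interval -0.93 to -0.89), short of 2-fold, and of -1.02 on TPM relative to the median gene. On each of the 5 scales Wnt5b was lower in mcPCs, which the large downward and small upward shifts between scales made nearly certain in advance.

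The remaining ligands were scarce. Wnt11 had 3.46 TPM in VSMCs against 2.50 TPM in mcPCs, with a ratio of 1.38 (95% interval 1.26 to 1.5), and Wnt5a, the paralogue of Wnt5b, 1.23 TPM and 0.863 TPM, with a ratio of 1.32 (1.18 to 1.46). Wnt4 stood at 0.447 TPM and 0.433 TPM, with a ratio of 1.62. Wnt2b, with 0.218 TPM and 0.153 TPM, and Wnt6, with 0.126 TPM and 0.116 TPM, had ratios of 1.19 and 1.66 from at most 56 reads per cell type. These 5 ratios, all in favour of mcPCs, changed sign on TPM as it stands, where they ran from -0.46 for Wnt5a to -0.035 for Wnt4. Wnt9a (1.57 TPM and 0.426 TPM) and Wnt9b (0.153 TPM and 0.0360 TPM) had ratios of -0.03 and -0.22, whose intervals included 0. The TPM of Wnt9a rests on 75 reads over the 3 VSMC samples and on an effective length of 402 bases, against 719 reads and 4787 bases for Wnt5a, so its place above Wnt5a in VSMCs depends on that length. Among the 19 Wnt ligands that RefSeq lists for the rat, 11 had no row here, among them Wnt1, Wnt3a, Wnt7a and Wnt7b. The table lists genes with a read in each of the 6 samples, so a gene without a row may have had reads in some samples. It may also be listed under another symbol or be missing from the annotation, which cannot be told here. A missing row is therefore not read as absence, here or for genes named below.

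The machinery of Wnt release was present in both cell types. Wls, which carries acylated Wnt proteins to the cell surface, reached 72.1 TPM in VSMCs against 43.0 TPM in mcPCs, and its normalized counts went from 5623 to 11982, a ratio of 1.09 (95% interval 1.07 to 1.12) that became 0.97 on TPM relative to the median gene and -0.74 on TPM as it stands. Porcn, which adds the acyl group, had 31.1 TPM and 10.6 TPM and a ratio of 0.26. Of the 10 genes of ligands and their release, 6 passed 2-fold with the higher mean in mcPCs and 0 in VSMCs, beside 21.6% and 13.8% of all genes, with a median ratio of 1.14. Apart from Wls, these 6 had 3.46 TPM or less in both cell types. Wnt2b, Wnt4 and Wnt6 lay under 0.8 TPM in both, where 54.9% of all genes were higher in mcPCs. With at least 0.8 TPM in a cell type, 3 of 6 genes of this role were higher in mcPCs and 0 in VSMCs. Such genes as a whole gave 16.9% and 15.0%. For all 10 genes the counts became 0 and 3 on TPM as it stands, beside 7.00% and 72.3% of all listed genes. They became 1 and 1 on counts brought to equal totals, beside 15.4% and 28.7%.

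**Figure D2:**
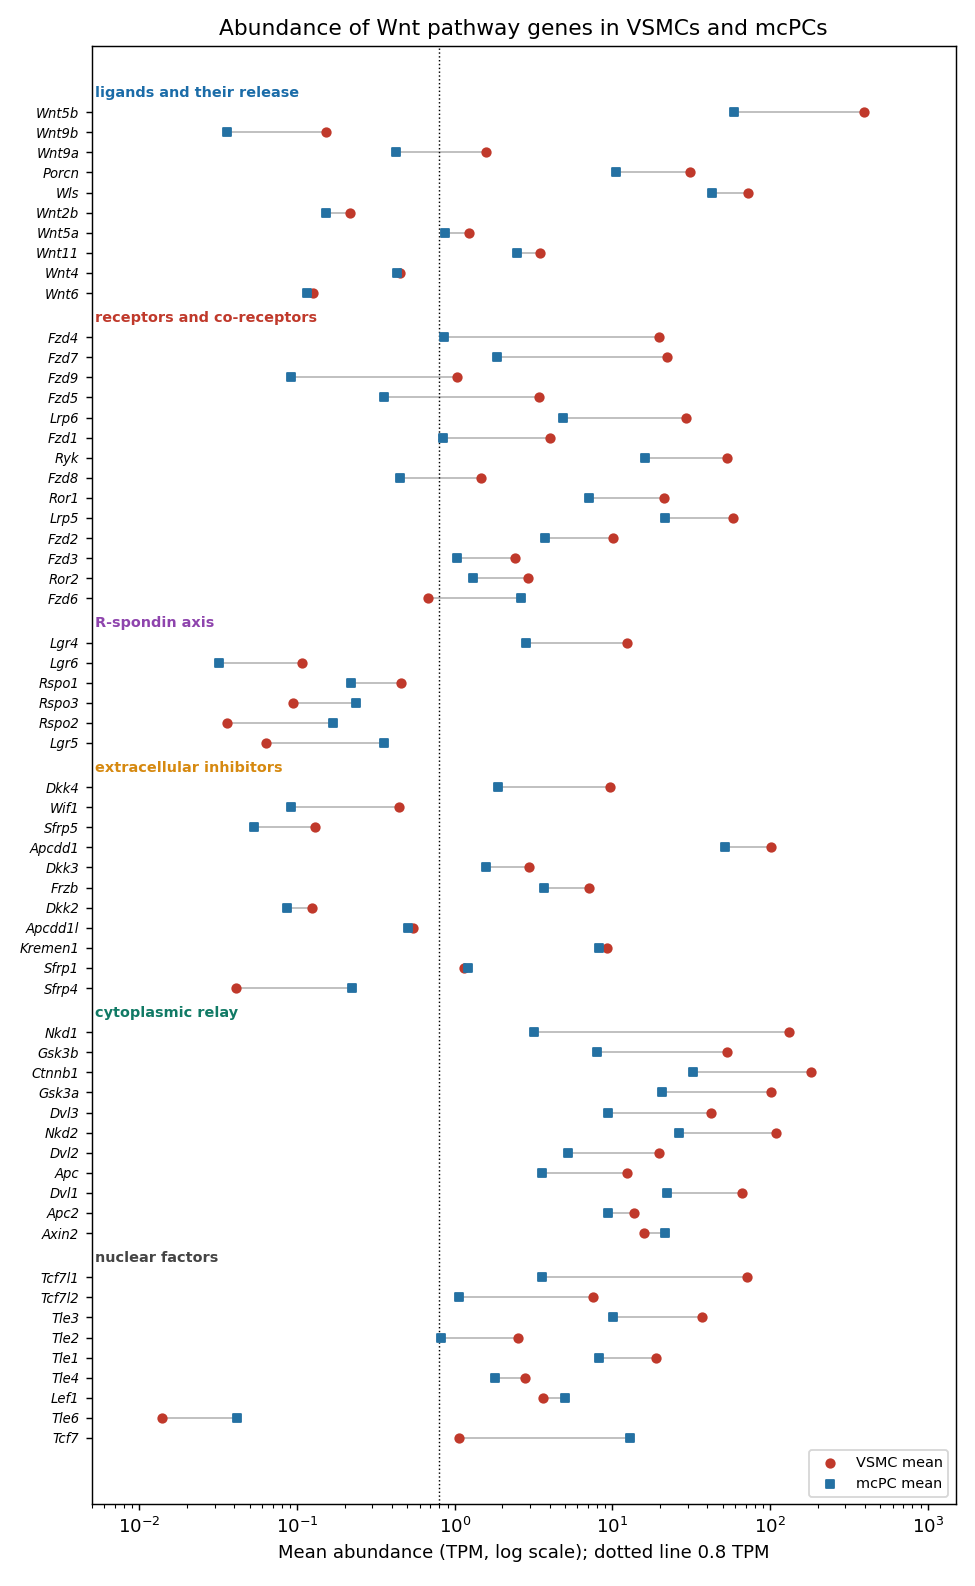
Mean abundance (TPM, log scale) of the 61 Wnt genes in VSMCs (circles) and mcPCs (squares), grouped by role and, within a role, ordered by the log2 ratio of normalized counts. Most squares lie left of their circles, on a scale where erythrocyte genes hold 66.6% of the mcPC TPM. The squares of Tcf7, Fzd6, Lgr5, Sfrp4, Rspo2, Rspo3, Lef1, Axin2, Tle6 and Sfrp1 lie to the right.

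The set of Frizzleds differed between the cell types. VSMCs held Fzd7 at 22.3 TPM, Fzd4 at 19.8 TPM and Fzd2 at 10.1 TPM, which made up 34.2%, 30.3% and 15.5% of the TPM of the 9 listed Frizzleds. In mcPCs the order was Fzd2 at 3.71 TPM (31.4%), Fzd6 at 2.62 TPM (22.2%) and Fzd7 at 1.85 TPM (15.6%), and Fzd4, the receptor of norrin as well as of Wnt proteins, came to 7.20%. Such shares are taken within a cell type and do not depend on the scale between cell types. They do include transcripts of other cells in the mcPC samples, whose part was not tested. Fzd6 held 1.04% in VSMCs.

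By ratio, Fzd4 (Ensembl ENSRNOG00000016848) went from 3805 normalized counts in VSMCs to 567 in mcPCs (-2.74, 95% interval -2.83 to -2.66), or 6.70-fold higher in VSMCs. Fzd7 went from 1686 to 491 (-1.78, -1.87 to -1.69). Fzd5 (3.44 TPM in VSMCs against 0.357 TPM in mcPCs) had a ratio of -1.47 and Fzd9 (1.04 TPM and 0.0910 TPM) a ratio of -1.70. These 4 Frizzleds were lower in mcPCs on each of the 5 scales, which the shifts between scales could hardly have changed. Fzd9, with 88.0 reads per VSMC sample and 14.0 per mcPC sample, came short of 2-fold on TPM relative to the median gene (-0.86). Fzd6 (Ensembl ENSRNOG00000004660) went the other way, from 78.3 normalized counts to 1052 (3.73, 3.56 to 3.90), or 13.3-fold higher in mcPCs, and stayed higher there on each scale (1.80 on TPM as it stands). At 0.680 TPM in VSMCs, Fzd6 falls under the study's filter of 0.8 TPM in that cell type. The study set that filter because endothelial transcripts were more abundant in its mcPCs. Fzd4, Fzd6 and Fzd8 are among 14 members not counted in whole reads, part of whose reads was shared with transcripts of other genes. The others are Wnt4, Wnt5a, Wnt9b, Rspo1, Rspo2, Dkk4, Sfrp5, Apc2, Gsk3a, Tcf7l1 and Tle1. Fzd1, Fzd2, Fzd3 and Fzd8, with 4.04, 10.1, 2.42 and 1.46 TPM in VSMCs and 0.842, 3.71, 1.04 and 0.452 TPM in mcPCs, had ratios between -0.43 and 0.58. Fzd10 had no row.

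The co-receptors were well represented. Lrp5 had 58.2 TPM in VSMCs against 21.4 TPM in mcPCs, with a ratio of 0.38, and Lrp6 29.2 TPM and 4.84 TPM, with a ratio of -0.78. Lrp5 thus made up 66.6% of the TPM of the pair in VSMCs and 81.6% in mcPCs. Among the receptors of the beta-catenin-independent branches, Ryk was the most abundant, at 53.5 TPM in VSMCs against 16.1 TPM in mcPCs, ahead of Ror1 at 21.3 TPM and 7.12 TPM and Ror2 at 2.90 TPM and 1.31 TPM. Their ratios were 0.10, 0.25 and 0.67. In all, 1 of the 14 receptors was at least 2-fold higher in mcPCs (7.14%, against 21.6% of all genes) and 4 in VSMCs (28.6%, against 13.8%), with a median ratio of 0.10. On TPM as it stands 13 were higher in VSMCs, where 72.3% of all genes were.

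R-spondins are secreted proteins that keep Frizzleds at the cell surface through Lgr4, Lgr5 and Lgr6. Lgr4 was the one receptor of some abundance, at 12.3 TPM in VSMCs against 2.85 TPM in mcPCs, with a ratio of -0.28. Lgr5, the stem cell marker of the gut, had 23 reads over the 3 VSMC samples and 234 over the 3 mcPC samples (0.0639 TPM and 0.357 TPM), a ratio of 4.10 (95% interval 3.48 to 4.79). Rspo2 had 14.0 and 103 reads and Rspo3 36 and 155 reads, with ratios of 3.70 and 3.02. Rspo1 had 0.456 TPM and 0.221 TPM with a ratio of 0.68, and Lgr6 0.107 TPM and 0.0319 TPM with a ratio of 0.21. The 3 genes past 2-fold, all higher in mcPCs, thus lay at 0.357 TPM or less, where 54.9% of all genes were higher in mcPCs.

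**Figure D3:**
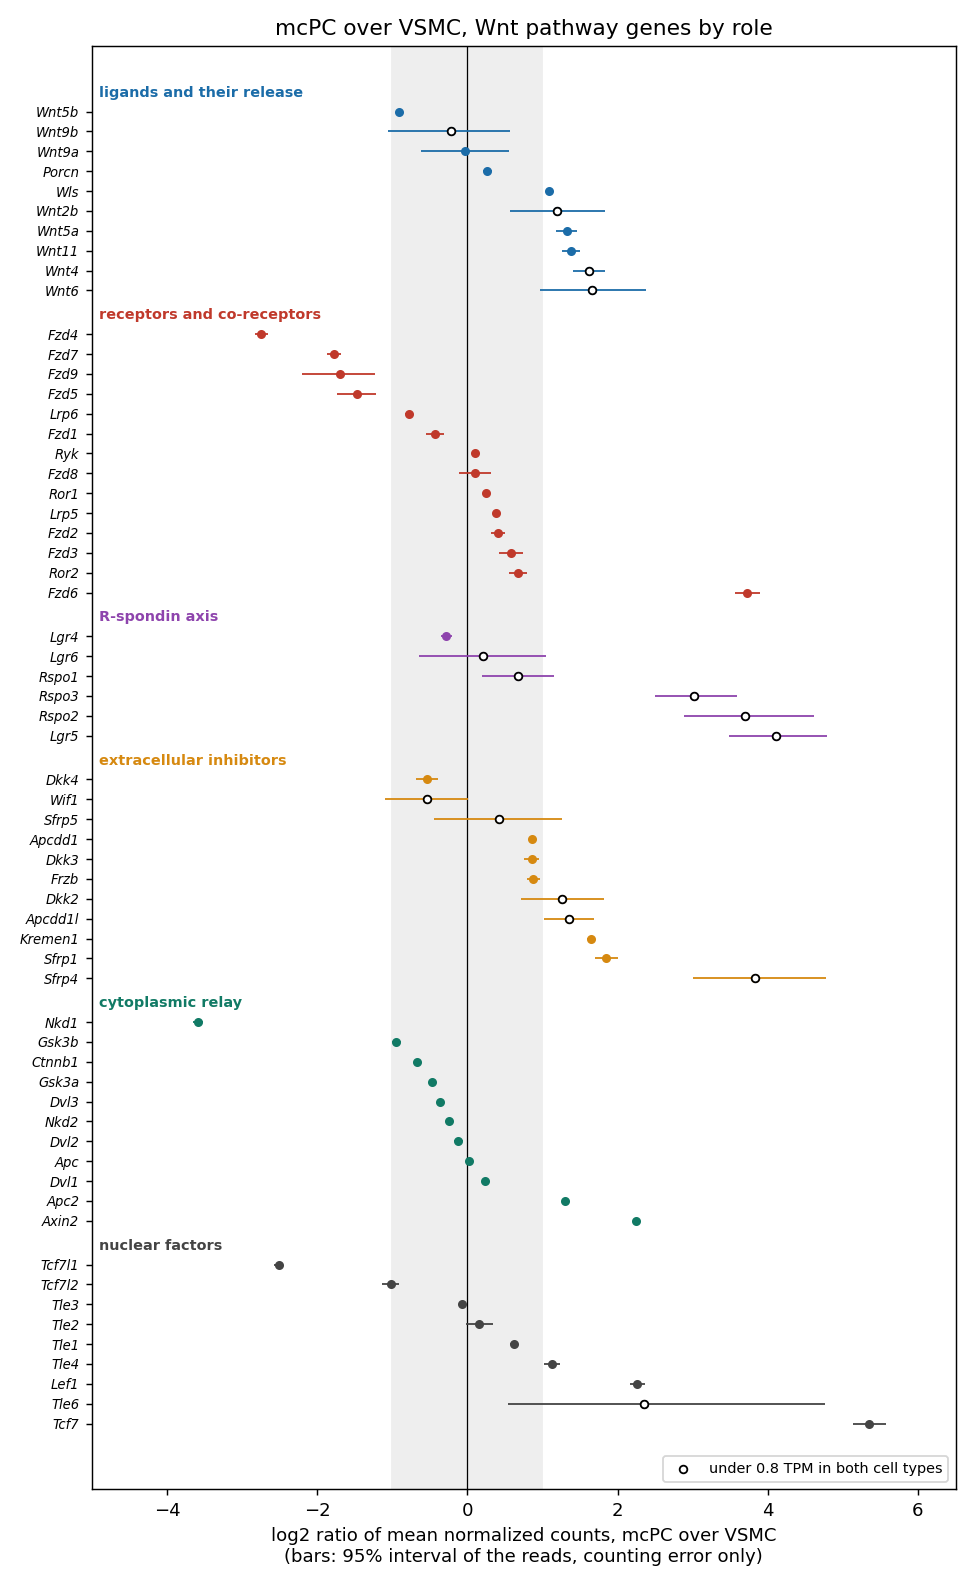
Log2 ratio of mean normalized counts (mcPC over VSMC) for each of the 61 Wnt genes by role, with bars for the 95% interval from counting error alone. Open points mark the 15 genes under 0.8 TPM in both cell types and the grey band ratios within 2-fold. Receptors past the band lie to the left apart from Fzd6, inhibitors past it lie to the right, and the TCF/LEF factors lie on both sides.

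Among the extracellular inhibitors Apcdd1, a membrane protein that binds Wnt ligands and Lrp5, was the most abundant, at 102 TPM in VSMCs against 51.7 TPM in mcPCs, 76.5% and 74.7% of the TPM of the 11 listed inhibitors. Its normalized counts were 8648 and 15665, a ratio of 0.86 (95% interval 0.84 to 0.88), short of 2-fold and -0.98 on TPM as it stands. Kremen1, the receptor of Dickkopf proteins, had 9.25 TPM and 8.23 TPM, 1126 and 3535 normalized counts and a ratio of 1.65 (1.60 to 1.70) that fell to -0.17 on TPM as it stands. Sfrp1, a secreted Wnt-binding protein, had 1.14 TPM and 1.21 TPM and a ratio of 1.85 (1.70 to 2.01), above 0 on each scale, if by 0.076 on TPM as it stands.

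Frzb (7.05 TPM in VSMCs against 3.71 TPM in mcPCs) and Dkk3 (2.96 TPM and 1.57 TPM) had ratios of 0.88 and 0.86. Dkk4, which blocks Lrp5 and Lrp6, stood at 9.59 TPM and 1.87 TPM with a ratio of -0.54. Sfrp4 rested on 13 reads over the 3 VSMC samples and 127 over the 3 mcPC samples, with a ratio of 3.83. Wif1, Sfrp5, Dkk2 and Apcdd1l stayed at 0.545 TPM or less. Of the 11 inhibitors, 5 passed 2-fold in favour of mcPCs and 0 of VSMCs, beside 21.6% and 13.8% of all genes, with a median ratio of 0.88. Kremen1 and Sfrp1 reached 0.8 TPM, whereas the other 3 lay below it, where 54.9% of all genes were higher in mcPCs. On TPM as it stands the split was 1 and 2, beside 7.00% and 72.3% of all genes. Dkk1, Sfrp2 and Kremen2 had no row.

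In the cytoplasm the contrasts were few and large. Beta-catenin itself (Ctnnb1) stood at 181 TPM in VSMCs against 32.6 TPM in mcPCs, above 94.2% and 92.5% of genes, with a ratio of -0.67 (95% interval -0.69 to -0.64). Nkd1 (Ensembl ENSRNOG00000014293), which binds Dishevelled and restrains the pathway, went from 132 TPM in VSMCs, above 92.1% of genes, to 3.18 TPM in mcPCs, above 46.9%. Its normalized counts went from 8962 to 744, a ratio of -3.59 (-3.66 to -3.52), or 12.0-fold higher in VSMCs, the lowest ratio of all members. The ratio was below 0 on each scale, which the shifts between scales could hardly have changed. Its paralogue Nkd2 kept 109.6 TPM and 26.4 TPM with a ratio of -0.25. Nkd1 accordingly made up 54.6% of the TPM of the pair in VSMCs and 10.7% in mcPCs.

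Axin2 (Ensembl ENSRNOG00000055010), a scaffold of the degradation complex whose gene is a widely used readout of beta-catenin activity, moved the other way. It had 16.0 TPM in VSMCs against 21.5 TPM in mcPCs, above 55.2% and 88.3% of genes, and 1747 and 8265 normalized counts, a ratio of 2.24 (95% interval 2.20 to 2.28) that stayed above 0 on each scale (0.43 on TPM as it stands). Of 13 common target genes outside the members, 4 were at least 2-fold higher in mcPCs and 4 in VSMCs, 30.8% each. All genes gave 21.6% and 13.8%, and the median ratio of these 13 was -0.67. The activity of beta-catenin was not measured. Axin1 had no row, which does not mean that it was absent. Apc2 had 13.7 TPM and 9.42 TPM with a ratio of 1.30, which was -0.53 on TPM as it stands, and Apc 12.4 TPM and 3.58 TPM with a ratio of 0.02. Gsk3a and Gsk3b, the kinases of the complex, stood at 101 TPM and 53.5 TPM in VSMCs and at 20.8 TPM and 7.96 TPM in mcPCs, with ratios of -0.47 and -0.95, and the 3 Dishevelleds had ratios between -0.37 and 0.23. Of the 11 genes of the relay, 2 were at least 2-fold higher in mcPCs (18.2%, against 21.6% of all genes) and 1 in VSMCs (9.09%, against 13.8%), with a median ratio of -0.25. The counts were 0 and 9 on TPM as it stands, beside 7.00% and 72.3% of all genes. They were 1 and 3 on counts brought to equal totals, beside 15.4% and 28.7%.

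The TCF/LEF factors, which place beta-catenin on DNA, showed the sharpest exchange. VSMCs held almost only Tcf7l1 (TCF3, Ensembl ENSRNOG00000014753), a member known mainly as a repressor, at 71.3 TPM, against 7.58 TPM of Tcf7l2, 3.61 TPM of Lef1 and 1.06 TPM of Tcf7. In mcPCs Tcf7 (TCF1) led with 13.0 TPM, followed by Lef1 with 5.00 TPM, Tcf7l1 with 3.58 TPM and Tcf7l2 with 1.06 TPM. As shares of the summed TPM of these 4 genes, Tcf7l1 went from 85.3% in VSMCs to 15.8% in mcPCs, Tcf7 from 1.27% to 57.4% and Lef1 from 4.32% to 22.1%. Put as ratios of abundance, Tcf7l1 stood at 67.3 times Tcf7 in VSMCs and Tcf7 at 3.63 times Tcf7l1 in mcPCs. Some markers of other cells had a level like that of Tcf7 in mcPCs, such as the leukocyte gene Ptprc (15.1 TPM) and the endothelial gene Cldn5 (15.4 TPM). The part of other cells in these shares was not tested.

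Tcf7 (Ensembl ENSRNOG00000005872) had the highest ratio of all members. Its mean normalized counts were 41.2 in VSMCs and 1724 in mcPCs, or 58.7 and 1293 reads per sample, a ratio of 5.35 (95% interval 5.14 to 5.58), and it was 40.9-fold higher in mcPCs. Lef1 had 247 and 1192 normalized counts and a ratio of 2.26 (2.16 to 2.37). Tcf7l1 had 7276 and 1274 and a ratio of -2.51 (-2.57 to -2.46), and Tcf7l2 719 and 354 and a ratio of -1.02 (-1.14 to -0.91), at the edge of 2-fold. The direction of each of the 4 was the same on all 5 scales, and the smallest ratio among them was 0.46 for Lef1 on TPM as it stands. For Tcf7l1 and Tcf7l2, higher in VSMCs, the shifts between scales could hardly have changed it.

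The Groucho/TLE co-repressors, which bind TCF/LEF factors in the absence of beta-catenin, lay within 2-fold except for Tle4 and Tle6. Tle3 led in both cell types, at 36.8 TPM in VSMCs against 10.1 TPM in mcPCs, with a ratio of -0.08. Tle1 had 18.8 TPM and 8.18 TPM and a ratio of 0.62, Tle2 a ratio of 0.16, and Tle4 2.81 TPM and 1.81 TPM and a ratio of 1.13 that was -0.61 on TPM as it stands. Tle6 rested on 3 and 16 reads. Of the 9 nuclear factors 4 were past 2-fold with the higher mean in mcPCs (44.4%, against 21.6% of all genes) and 2 in VSMCs (22.2%, against 13.8%), with a median ratio of 0.62. On TPM as it stands the counts were 1 and 5, beside 7.00% and 72.3% of all genes. The median there was -1.19, against -1.72 over all genes.

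**Figure D4:**
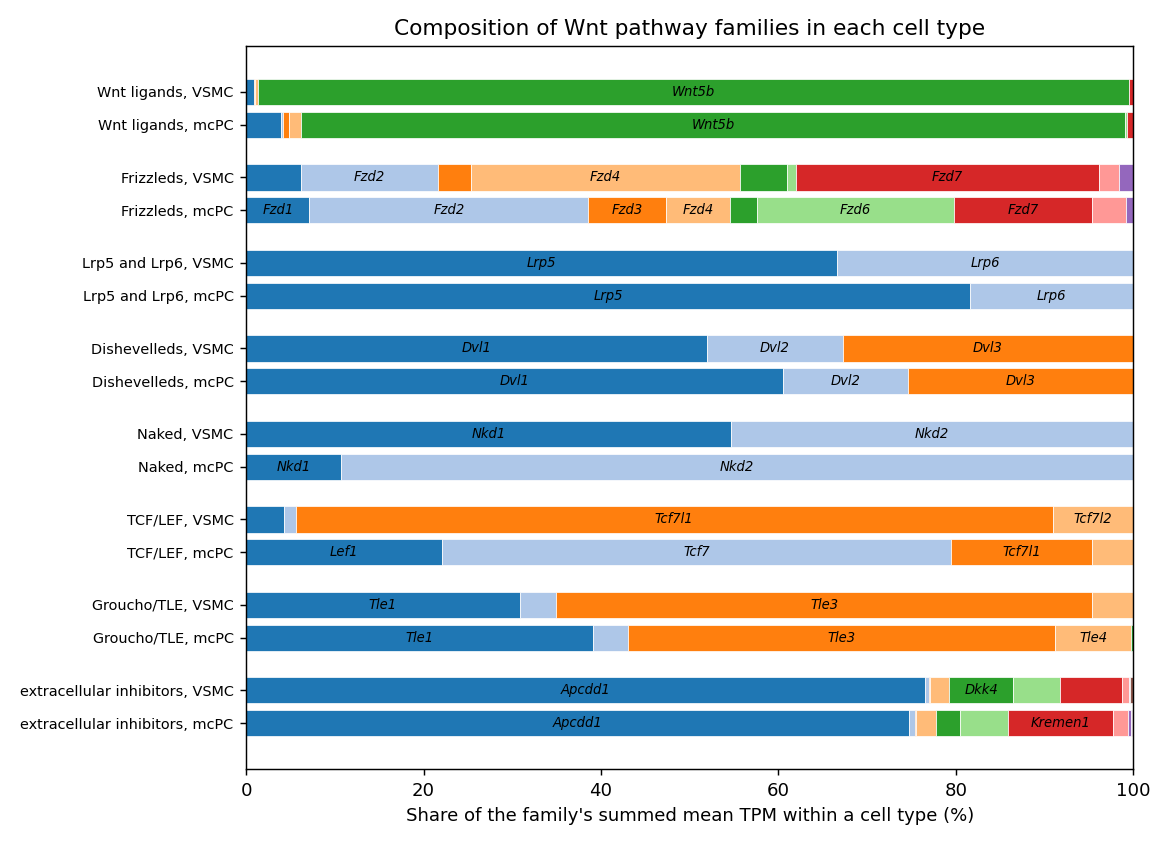
Share of the summed mean TPM of each family held by each gene, in VSMCs and in mcPCs (percent, stacked bars, genes in alphabetical order from the left, narrow segments unnamed; colours are reused between families). Tcf7l1 fills 85.3% of the VSMC bar of the TCF/LEF factors and Tcf7 57.4% of the mcPC bar, while Wnt5b fills 98.2% and 92.9% of the ligand bars.

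The promoters of Tcf7, Axin2 and Nkd1 are shown because all 3 members lie past 2-fold and their RefSeq promoter windows hold the letters CTTTGAT, part of the site that TCF/LEF factors bind. The windows run from 250 bases before to 50 bases after the start of the gene in the rat assembly GRCr8, 5′ to 3′ on the strand of the gene, with the match in capitals. They lie at chr10:36954230-36954529 on the minus strand for Tcf7, chr10:94398535-94398834 on the plus strand for Axin2 and chr19:34722797-34723096 on the minus strand for Nkd1.
Tcf7: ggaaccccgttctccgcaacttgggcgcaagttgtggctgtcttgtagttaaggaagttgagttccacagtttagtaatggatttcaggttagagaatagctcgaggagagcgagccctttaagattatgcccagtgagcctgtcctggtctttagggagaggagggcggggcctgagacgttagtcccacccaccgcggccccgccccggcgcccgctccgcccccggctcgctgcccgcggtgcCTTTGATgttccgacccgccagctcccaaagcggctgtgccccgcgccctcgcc
Axin2: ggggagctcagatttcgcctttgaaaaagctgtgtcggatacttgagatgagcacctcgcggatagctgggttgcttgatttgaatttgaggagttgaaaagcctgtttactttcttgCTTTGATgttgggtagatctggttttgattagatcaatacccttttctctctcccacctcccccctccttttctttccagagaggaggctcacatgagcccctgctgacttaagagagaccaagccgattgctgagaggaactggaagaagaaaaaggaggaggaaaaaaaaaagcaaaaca
Nkd1: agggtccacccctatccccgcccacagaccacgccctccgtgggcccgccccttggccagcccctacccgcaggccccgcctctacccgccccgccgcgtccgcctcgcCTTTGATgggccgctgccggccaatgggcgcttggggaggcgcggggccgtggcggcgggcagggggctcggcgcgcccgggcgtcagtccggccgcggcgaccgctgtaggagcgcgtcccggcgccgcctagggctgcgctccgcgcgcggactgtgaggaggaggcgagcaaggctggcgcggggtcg

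The match begins 4 bases before the start in Tcf7, 132 bases before it in Axin2 and 141 bases before it in Nkd1. Read on both strands, CTTTGAT was found in 3 of the 47 members with a promoter in RefSeq (6.38%) and in 3.63% of all 33469 promoters. The shorter CTTTGA, which the 7-letter motif contains, was found in 8 of 47 (17.0%) and in 16.1% of all promoters, and the longer CTTTGATC in 0 of 47 and in 0.771%. The motif of 7 letters was singled out after the counts of all 3 had been seen. Of the genes that hold it, Tcf7 and Axin2 were higher in mcPCs and Nkd1 in VSMCs, and the windows of Lef1 and Tcf7l1 do not hold it. A match is a string of letters in a window and was not tested for binding.

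Markers of other cell types were also mostly higher in mcPCs by ratio. Of the endothelial markers 14 of 16 had a row and 11 were at least 2-fold higher in mcPCs, with a median ratio of 4.00. Their summed level was 760.1 TPM in VSMCs against 647 TPM in mcPCs, most of it Esam, Itm2a and Slc2a1, and Pecam1 had no row. Flt1 and Slc2a1 were lower in mcPCs, with ratios of -0.78 and -0.50. Cldn5, the tight junction gene of endothelium, went from 0.643 TPM to 15.4 TPM. In mcPCs Esam, Itm2a, Cd34 and Slc2a1 stood above Cldn5, and the other endothelial markers stood at 2.76 TPM (Tie1) or less. The TPM of Tcf7 was 1.65 times that of Cldn5 in VSMCs and 0.842 times in mcPCs. Among leukocyte genes Ptprc went from 0.0659 TPM to 15.1 TPM and the 3 of 6 listed genes with a row from a summed 1.58 TPM to 154 TPM, while Cd3e, Cd79a and S100a8 had no row. Prf1 and Ltb, lymphocyte genes outside the list and chosen after their values were seen, had ratios of 7.32 and 7.09. The median ratio of the 3 listed leukocyte genes with a row was 9.10. Neuronal markers (4 of 9 with a row) went from 0.740 TPM to 21.2 TPM, with 4 past 2-fold and a median ratio of 5.60, and microglial ones (5 of 9) from 0.727 TPM to 12.0 TPM, with 5 past 2-fold and a median of 5.35. Astrocyte markers (5 of 8) went from 14.2 TPM to 20.1 TPM, with 4 past 2-fold and a median of 3.10. Oligodendrocyte markers (6 of 7) stood at 20.3 TPM and 18.6 TPM, with 5 past 2-fold in favour of mcPCs and a median of 1.68, and fibroblast ones (5 of 6) at 141 TPM and 186 TPM, with 4 past 2-fold and a median of 1.61. The part of these cells in the ratios of Tcf7, Lef1, Axin2, Fzd6 and the low members was not tested. Smooth muscle markers, which define VSMCs, had a median ratio of -8.02. Nkd1, Fzd4, Fzd7 and Tcf7l1 are named here because they were higher in VSMCs, so the direction they share with these markers tells nothing more about them.

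**Figure D5:**
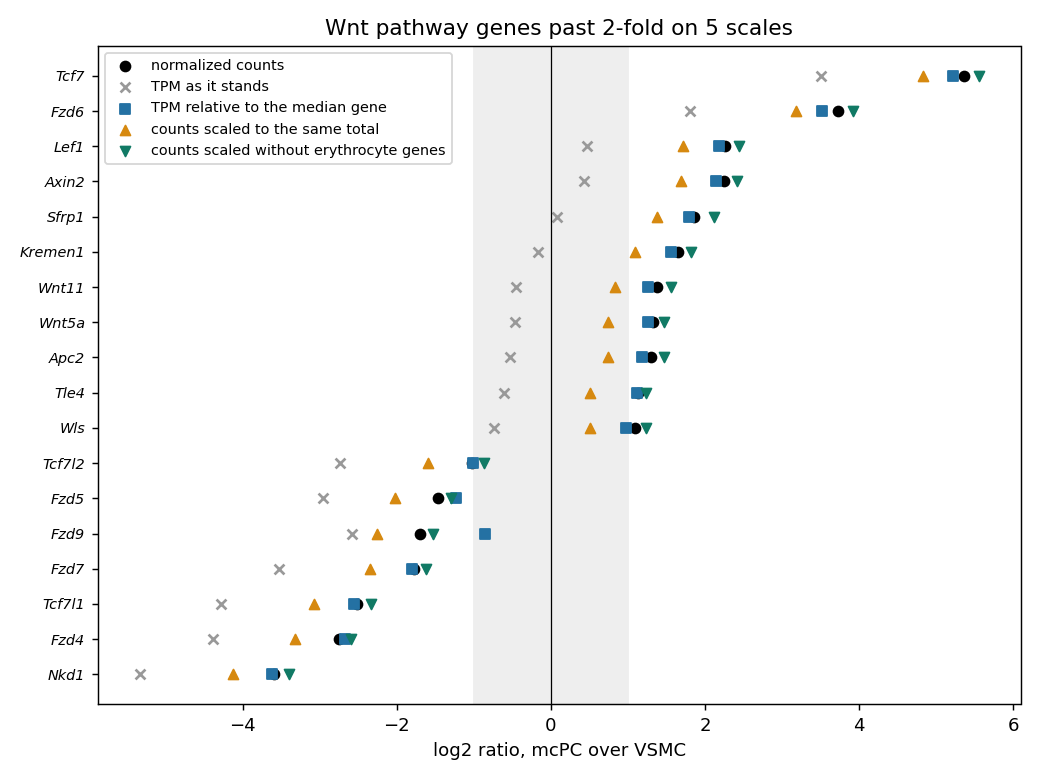
Log2 ratio (mcPC over VSMC) of the 18 Wnt genes past 2-fold with at least 0.8 TPM in a cell type, on normalized counts and on 4 other scales. Tcf7, Fzd6, Lef1, Axin2 and Sfrp1 stay above 0 and the 7 genes higher in VSMCs stay below 0 on all 5 scales, while the other 6 fall below 0 on TPM as it stands. The median over all genes is -1.72 on TPM as it stands and at most 0.18 on any scale, so the 7 could hardly have changed sign.

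A list of 111 other genes of the pathway, outside the rule, was set beside the members, and 102 of them had a row. Of these, 23 were at least 2-fold higher in mcPCs (22.5%, against 21.6% of all genes) and 18 in VSMCs (17.6%, against 13.8%), with a median ratio of -0.25, where the members gave 21 and 7 of 61. The share higher in mcPCs was near that of all genes. The casein kinases and degradation genes, 23 in number, moved least, with 1 gene past 2-fold in each direction. Of 17 planar polarity genes 5 were higher in mcPCs and 3 in VSMCs, of 17 calcium branch genes 4 and 5, of 18 nuclear co-factors 2 and 1, of 14 extracellular and membrane modulators 7 and 4, and of 13 common target genes 4 and 4, each to be read beside the same 21.6% and 13.8%.

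Past 4-fold lay 16 genes of that list higher in mcPCs (15.7%, against 12.0% of all genes) and 6 higher in VSMCs (5.88%, against 5.64%). Those higher in mcPCs stayed at 4.33 TPM or less in both cell types. Among them, and chosen after their values were seen, the planar polarity receptor Celsr3 had a ratio of 7.58, the calcium-regulated factor Nfatc2 5.67 and the endothelial factor Sox17 5.37, each under 0.8 TPM. The genes over 4-fold apart that also reached 10 TPM, on a scale where erythrocyte genes hold 66.6% of the mcPC total, were all higher in VSMCs. Trabd2b, a membrane protease that inactivates Wnt proteins, had 45.3 TPM in VSMCs against 0.356 TPM in mcPCs, a ratio of -5.14. Igfbp4, which binds insulin-like growth factors and also Frizzled and Lrp6, had 195 TPM and 1.79 TPM and a ratio of -4.94. Ccnd1, the cyclin that carries cells into S phase and a common target of beta-catenin, had 153 TPM and 3.54 TPM and a ratio of -3.60. In the calcium branch Camk2g had 214 TPM and 6.84 TPM and Plcb4 75.1 TPM and 4.99 TPM, with ratios of -3.10 and -2.11.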

How the data were processed

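RNA-Seq libraries (polyA, strand specific) of 3 VSMC and 3 mcPC samples were each sequenced in 4 runs. The authors estimated transcript abundances with Salmon 0.8.0 (version and build from the submitters' processing notes) against Ensembl cDNA of the build Rnor_6.0, added them up by gene with tximport, normalized with DESeq2 and kept genes with a read in each sample. Salmon divides reads between transcripts by likelihood, so genes with similar sequence share reads: 14 of the 61 members had a read total more than 0.05 from a whole number. The deposited table gives the authors' mean TPM, the authors' mean estimated counts per run, the authors' mean normalized counts (a signal value, counts divided by normalization factors) and effective lengths for each cell type. Its 4 columns of the authors' comparison (log2 fold change, standard error, p-value and adjusted p-value) were not used, and 0 columns hold values of single samples. A test over samples was therefore not run.

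From these values log2 ratios of mean normalized counts plus 1 (10 as an alternative), of mean TPM plus 0.1 and of scaled counts were computed over all 14607 genes. Estimated counts as deposited by the authors were multiplied by 12 runs, which gives the reads of the 3 samples of a cell type, an average of 62.0 M in a VSMC sample and 48.0 M in a mcPC sample. Intervals used 95% confidence. The genes named are all ligands, Frizzleds, Lrp5, Lrp6 and Ctnnb1, members at least 2-fold apart with at least 0.8 TPM in a cell type, and the most abundant member of each role in each cell type. Genes of the other list are named when they have at least 10 TPM and are at least 4-fold apart. Members with few reads (under 100 in a cell type for 15 of them) and genes of the remaining roles are named besides this rule and were chosen after their values were seen. The members and all gene lists were chosen with earlier results of these data known. Promoters were matched by symbol to RefSeq (GRCr8). No gene coordinates are given for the build of the table. The log2 ratio and the counting interval were checked on simulated counts that had counting error only, with no spread between isolations. The other steps were not checked in this way. Computation used Python 3.11.15 with scipy 1.17.1, pandas 2.3.3, numpy 2.4.6 and matplotlib 3.10.9.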

Additional observations from a re-analysis of the deposited data

How the results depend on the processing

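Direction and size depended on how the cell types were scaled to each other, and the shares of a family within a cell type did not. On TPM as it stands 4 members were at least 2-fold higher in mcPCs and 33 in VSMCs (median -1.19). All genes gave 7.00% and 72.3% there (median -1.72), beside which the counts by role are also to be read. By role the numbers higher in mcPCs and in VSMCs and the median became 0, 3 and -0.60 for ligands and release, 1, 13 and -1.65 for receptors, 1, 1 and 0.075 for the R-spondin axis, 1, 2 and -0.59 for inhibitors, 0, 9 and -2.05 for the relay, 1, 5 and -1.19 for nuclear factors, and 9, 78 and -2.02 for the other pathway genes. There Apc2 (-0.53), Kremen1 (-0.17), Tle4 (-0.61), Wls (-0.74), Wnt11 (-0.45), Wnt2b (-0.33), Wnt4 (-0.035), Wnt5a (-0.46) and Wnt6 (-0.067) changed sign, on a scale whose median over all genes is -1.72. On TPM relative to the median gene the members' median was 0.53, ligands had 1 gene higher in VSMCs, inhibitors a median of 1.13, and the relay 2 genes higher in VSMCs and a median of -0.33. All genes gave 22.4% higher in mcPCs and 13.3% in VSMCs on that scale. With counts scaled to equal totals the members gave 13, 14 and -0.20, where all genes gave 15.4%, 28.7% and a median of -0.55. Ligands gave 1, 1 and 0.62, receptors a median of -0.47, and inhibitors 2 higher in VSMCs and 0.36. The relay gave 1, 3 and -0.81, nuclear factors a median of 0.042, and the other genes 44 higher in VSMCs and -0.79. Without erythrocyte genes the medians were 0.53 for members, 1.35 for ligands, 0.26 for receptors, 1.09 for inhibitors (8 higher in mcPCs), -0.084 for the relay, 0.77 for nuclear factors (1 higher in VSMCs) and -0.065 for the other genes. There 24.3% of all genes were higher in mcPCs and 11.4% in VSMCs. Adding 10 in place of 1 gave a median of 0.26. At least 0.8 TPM in VSMCs, the filter of the study, left 10 members higher in mcPCs and a median of 0.11, and 0.8 TPM in either cell type 11 and 0.13. A 4-fold limit left 9 and 3. No paired analysis was possible because the table holds cell type means only, and for the same reason no sample could be left out in turn. Precision is set by reads, which fell as low as 3 per cell type for Tle6, and the spread between isolations is unknown here.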
